A study of Mus musculus with 5 samples.

Results

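The Wnt ligands, their Frizzled and LRP receptors and their secreted antagonists were read on 5 bead arrays of mouse epiblast stem cells. The members were all genes whose annotated symbol starts with Wnt and a digit, with Fzd, with Sfrp or with Dkk and a digit, together with Lrp5 and Lrp6. This rule took 37 of the 16593 genes on the array, covered by 51 probes: 19 Wnt ligands, 8 Frizzled receptors, 2 LRP co-receptors, 4 Sfrp and 4 Dkk antagonists.

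Epiblast stem cells are pluripotent cells of the post-implantation epiblast, here of the single line E3, and they shared the dish with inactivated CF1 mouse embryonic fibroblasts as feeders. All 5 cultures had been expanded in KSR medium (knockout serum replacement) with 5 ng/ml FGF2 and were then moved to fresh KSR medium for 12 h. The untreated culture received that medium without supplements. The PD culture received 1 µM PD0325901, an inhibitor of MEK, the CH culture 3 µM CHIR99021, an inhibitor of GSK3, the LIF culture 1000 U/ml of leukemia inhibitory factor, and the PCL culture these 3 agents together, each at its single dose. FGF2 is not named in the 12 h medium of any culture. Each condition had 1 array, so no difference has a replicate check and no test was possible, and each ± is a standard error over the beads of 1 array, which covers measurement within the array only.

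Wnt proteins are lipid-modified secreted ligands that bind a Frizzled receptor together with Lrp5 or Lrp6. In the canonical branch this binding stops GSK3 from marking beta-catenin for destruction, and beta-catenin then acts with TCF/LEF factors on target genes. Sfrp proteins bind Wnts outside the cell, and Dkk1, Dkk2 and Dkk4 act on the LRP co-receptors, whereas Dkk3 is a divergent member of its family. In the mouse embryo, Wnt3 is needed to form the primitive streak from the epiblast, and Wnt8a is expressed in the early streak region.

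Promoter sequences, from 250 bases before to 50 bases after a gene's start, were found in RefSeq for 23 of the 37 members. They are shown for Fzd10 and Wnt3, which stood higher on both arrays with CH than on all others, and for 1 of the 3 starts of Wnt5b, the window among detected members that held the letters CTTTGA, 1 form of the core of the TCF/LEF site, or their reverse complement TCAAAG. Capitals mark these letters, and all windows are written 5′ to 3′ on the gene's strand in the build GRCm38.p6.
Fzd10, chr5:128600856-128601155, plus strand: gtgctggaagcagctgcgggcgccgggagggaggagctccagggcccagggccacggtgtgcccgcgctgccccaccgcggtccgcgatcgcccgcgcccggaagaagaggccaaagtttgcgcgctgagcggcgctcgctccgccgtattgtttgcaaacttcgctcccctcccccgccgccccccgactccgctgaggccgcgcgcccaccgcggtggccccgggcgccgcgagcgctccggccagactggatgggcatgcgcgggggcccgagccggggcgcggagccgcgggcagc
Wnt3, chr11:103773925-103774224, plus strand: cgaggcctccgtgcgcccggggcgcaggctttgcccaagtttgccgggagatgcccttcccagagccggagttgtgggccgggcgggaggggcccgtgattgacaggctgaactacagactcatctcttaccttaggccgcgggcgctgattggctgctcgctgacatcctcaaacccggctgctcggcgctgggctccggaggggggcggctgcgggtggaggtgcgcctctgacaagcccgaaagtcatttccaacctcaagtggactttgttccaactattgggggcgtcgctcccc
Wnt5b, chr6:119449337-119449636, minus strand: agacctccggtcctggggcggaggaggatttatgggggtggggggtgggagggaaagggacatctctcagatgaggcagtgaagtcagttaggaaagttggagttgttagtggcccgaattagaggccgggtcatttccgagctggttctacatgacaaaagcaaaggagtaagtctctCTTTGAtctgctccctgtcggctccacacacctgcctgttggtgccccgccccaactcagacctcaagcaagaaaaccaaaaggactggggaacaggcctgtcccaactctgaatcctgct
The Wnt5b match began 71 bases before the start. Neither Fzd10 nor Wnt3 held the letters in this window. Other forms of the core, such as CTTTGT, were not searched, and the Wnt3 window holds ctttgt, left unmarked. Of 26 windows of members 4 held them on either strand (15.4%), beside 5257 of 32851 windows of all genes (16%). A match is a description of the letters only.

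A probe was called detected at a detection p under 0.01, the share of negative control probes at least as bright. Of the 37 members, 15 were detected on at least 1 array (40.5%), beside 49.0% of all genes, and 13 were detected on each of the 5 arrays. The 10 members detected everywhere were the ligands Wnt5a and Wnt8a, the receptors Fzd2, Fzd6, Fzd7 and Fzd10, the co-receptor Lrp5 and the antagonists Sfrp1, Sfrp2 and Dkk3. The other 5 detected members (Wnt3, Wnt4, Wnt5b, Wnt7b and Lrp6) crossed the detection limit between conditions.

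The remaining 22 members were detected on no array. Among ligands these were Wnt1, Wnt2, Wnt2b, Wnt3a, Wnt6, Wnt7a, Wnt8b, Wnt9a, Wnt9b, Wnt10a, Wnt10b, Wnt11 and Wnt16. Among receptors they were Fzd1, Fzd3, Fzd4 and Fzd8, and among antagonists Sfrp4, Sfrp5, Dkk1, Dkk2 and Dkk4. Their levels lay between 4.20 and 5.09 on the log2 scale of background-corrected and quantile-normalized intensity, where the lowest detected probe of an array stood between 5.02 and 5.17. A value there is a bound and does not show that a transcript was absent. With a detection p under 0.05, 14 to 17 members per array passed.

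**Figure D1:**
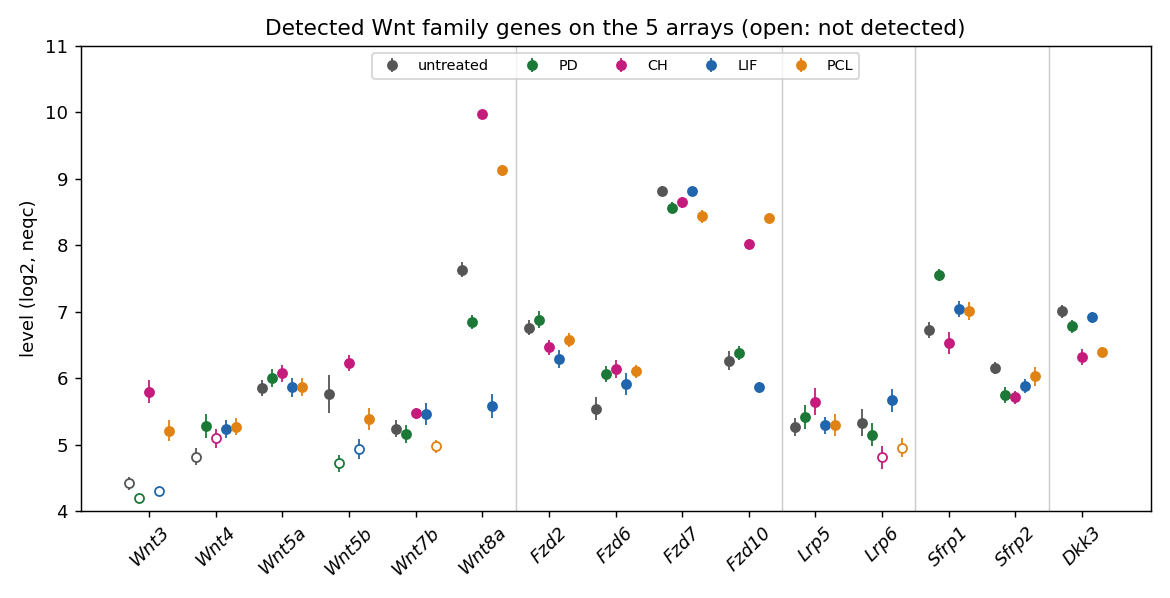
Level (log2 of the normalized intensity, vertical axis) of the 15 detected members on the 5 arrays, with the bead standard error as bars and open points where the probe was not detected. Values are to be compared within a gene, since probes differ in brightness: Wnt8a spans 5.58 to 9.97 and Fzd10 5.86 to 8.41, while Wnt5a stays between 5.85 and 6.07.

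Between 10389 and 10898 of 25697 probes were detected per array, and the median raw intensity lay between 90.0 and 96.1, so most members were read close to background. The LIF array stood apart from the rest, with 219 of 7796 compared genes at least 2-fold below untreated, against 30 to 52 on the other treated arrays. The 10 epiblast stem cell markers checked, among them Pou5f1, Sox2, Nanog and Fgf5, were detected on all 5 arrays. Of 18 feeder fibroblast markers on the array, 14 were detected on at least 1 array, and Col1a2, Col3a1, Postn and Pdgfrb on none. Their summed linear level, the normalized intensity above the offset added over these genes, was 5204 in the untreated culture, 9222 in PD, 5683 in CH, 5094 in LIF and 7518 in PCL. The brightest of them, Acta2, weighs most in this sum, at 11.67 untreated and 12.42 with PD on the log2 scale. In such mixed RNA, fewer cells of a type cannot be told apart from less RNA per cell.

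Among the ligands, Wnt8a varied most. The raw intensity of its brightest probe was 251 ± 14.3 in the untreated culture, 188 ± 8.17 in PD, 1147 ± 45.8 in CH, 120.2 ± 6.42 in LIF and 566 ± 27.1 in PCL. Both arrays with CH thus stood above the 3 without it, and LIF gave the lowest value. On the log2 scale Wnt8a stood 2.34 ± 0.13 above untreated with CH and 1.49 ± 0.14 above it with PCL, and its differences were -0.78 ± 0.15 on the PD array and -2.05 ± 0.21 on the LIF array. It was thus 5.06-fold higher in the CH culture and 4.15-fold lower in the LIF culture. The second probe of Wnt8a gave differences of 2.33 ± 0.13 and 1.27 ± 0.13 in the CH and PCL cultures and of -0.70 ± 0.15 and -1.84 ± 0.19 in the PD and LIF cultures. The dimmest probe, not detected with PD or LIF, gave measured differences of 1.88 ± 0.24, 1.28 ± 0.27, -0.43 ± 0.31 and -1.07 ± 0.22 in that order, so the 3 probes had the same sign on each treated array.

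Wnt3 was detected on the arrays with CH and nowhere else. Its single probe read 83.8 ± 3.04 in the untreated culture, 77.4 ± 2.26 in PD, 128 ± 6.88 in CH, 82.8 ± 2.11 in LIF and 102 ± 3.78 in PCL. Against untreated, where it was not well above background, it was at least 1.61-fold higher with CH and at least 1.08-fold higher with PCL, with measured log2 differences of 1.37 ± 0.20 and 0.79 ± 0.19. No fold is given for PD and LIF, since neither array nor the untreated one detected it.

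Wnt5b, a ligand usually placed in the beta-catenin-independent branch, had raw intensities of 117 ± 10.3 untreated, 96.9 ± 2.91 in PD, 148 ± 6.66 in CH, 100.3 ± 3.34 in LIF and 106 ± 4.24 in PCL. The PD and LIF arrays did not detect it, and CH gave its highest value. It was at least 1.62-fold lower with PD and at least 1.67-fold lower with LIF, with measured log2 differences of -1.05 ± 0.32 and -0.82 ± 0.33, and stood at 0.47 ± 0.32 with CH and -0.38 ± 0.33 with PCL. The untreated bead error of this probe was the largest of its 5 arrays.

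**Figure D2:**
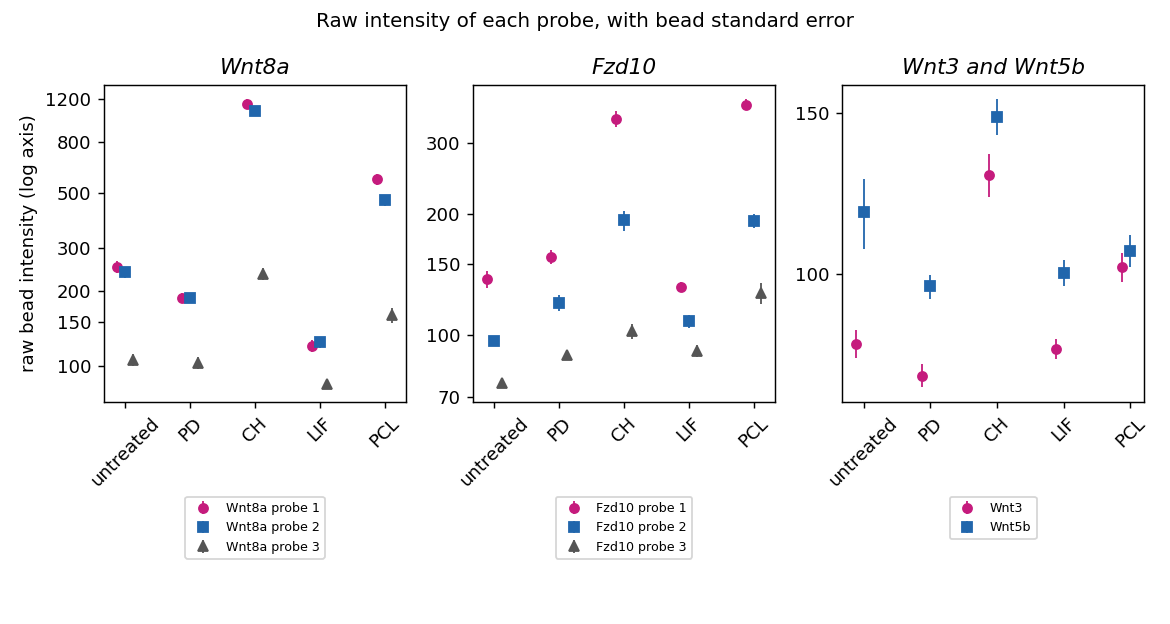
Raw bead intensity (log axis, with the bead standard error) of every probe of Wnt8a and Fzd10 and of the single probes of Wnt3 and Wnt5b on the 5 arrays. The brightest Wnt8a probe reads 1147 with CH and 120.2 with LIF, and all 3 Fzd10 probes are highest on the arrays with CH.

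The other detected ligands differed less. The brighter probe of Wnt5a lay between 5.85 and 6.07 on all arrays, with differences from untreated of 0.01 to 0.23. Its other probe disagreed, at -0.59 ± 0.24 in PD and -0.09 ± 0.28 in CH, with measured differences of -0.72 ± 0.25 in LIF and -0.60 ± 0.26 in PCL, where it was not detected. Wnt4 was detected with PD, LIF and PCL, at least 1.13-fold, 1.10-fold and 1.12-fold higher than untreated. The measured differences were 0.46 ± 0.22, 0.41 ± 0.18 and 0.45 ± 0.18. Its second probe was detected on no array and read 0.29 ± 0.22, 0.16 ± 0.18 and 0.05 ± 0.16 in that order. Wnt7b was detected on all arrays except PCL and stood at -0.07 ± 0.19 with PD, 0.23 ± 0.15 with CH and 0.22 ± 0.21 with LIF. With PCL it was at least 1.05-fold lower, with a measured -0.27 ± 0.16. The second probe of Wnt7b was detected on no array.

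Of the receptors, Fzd10 was the one past 2-fold. The raw intensity of its brightest probe was 137 ± 6.93 untreated, 156 ± 6.46 in PD, 344 ± 15.3 in CH, 131 ± 3.71 in LIF and 372 ± 11.6 in PCL. The 2 arrays with CH lay far above the other 3, which lay close together. Fzd10 stood at 1.76 ± 0.16 with CH and 2.14 ± 0.15 with PCL on the log2 scale, 3.38-fold and 4.41-fold higher, and at 0.11 ± 0.18 with PD and -0.41 ± 0.16 with LIF. Its second probe was not well above background on the untreated array, and against that reading it gave measured differences of 1.88 ± 0.17 with CH, 2.13 ± 0.14 with PCL, 0.60 ± 0.19 with PD and 0.24 ± 0.18 with LIF. The 2 probes thus gave large values of like size with CH and PCL and differed with PD and LIF. The dimmest probe was detected with PCL alone, at a measured 1.79 ± 0.18 from untreated.

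The other Frizzled receptors stayed within 2-fold on every treated array. Fzd7 was detected throughout and lay between -0.38 ± 0.12 with PCL and 0.00 ± 0.09 with LIF. Fzd2 was lowest with LIF, at -0.47 ± 0.17. Fzd6, a receptor known from planar polarity, stood above untreated on each treated array, at 0.52 ± 0.21 in PD, 0.60 ± 0.22 in CH, 0.37 ± 0.24 in LIF and 0.57 ± 0.20 in PCL, values that share the dim untreated reading of 110 ± 5.25.

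The co-receptors Lrp5 and Lrp6 were both near the detection limit. Lrp5 differed from untreated by 0.02 to 0.38, each within 2 bead standard errors. Lrp6 was not detected on either array with CH and was at least 1.15-fold lower than untreated with CH and at least 1.12-fold lower with PCL, while it stood at 0.33 ± 0.26 with LIF and -0.18 ± 0.26 with PD.

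Of the antagonists, Sfrp1 had its highest value with PD. Its raw intensity was 165 ± 8.40 untreated, 262 ± 12.4 in PD, 167 ± 10.8 in CH, 214 ± 11.9 in LIF and 184 ± 11.3 in PCL. The log2 difference from untreated was 0.83 ± 0.15 with PD, and the other 3 treated arrays lay between -0.19 ± 0.20 (CH) and 0.32 ± 0.17 (LIF). The feeder fibroblast markers moved with PD as well: their median difference was 0.50 over the 14 compared, with 10 above 0, 3 at least 2-fold higher and 1, Mgp, at least 2-fold lower. The part of the feeders in the Sfrp1 value was not tested.

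The brightest probe of Dkk3 stood lower on both arrays with CH. It read 185 ± 8.13 untreated, 183 ± 7.57 in PD, 153 ± 6.63 in CH, 202 ± 7.70 in LIF and 144 ± 4.15 in PCL. It differed by -0.69 ± 0.15 with CH and -0.61 ± 0.13 with PCL, against -0.22 ± 0.14 with PD and -0.09 ± 0.13 with LIF. The second detected probe of the gene gave -0.53 ± 0.20 with CH, -0.21 ± 0.20 with PCL, 0.07 ± 0.19 with PD and -0.19 ± 0.18 with LIF, so there CH was lowest and PCL was level with LIF. Sfrp2 lay below untreated on all treated arrays, from -0.44 ± 0.14 with CH to -0.13 ± 0.18 with PCL.

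**Figure D3:**
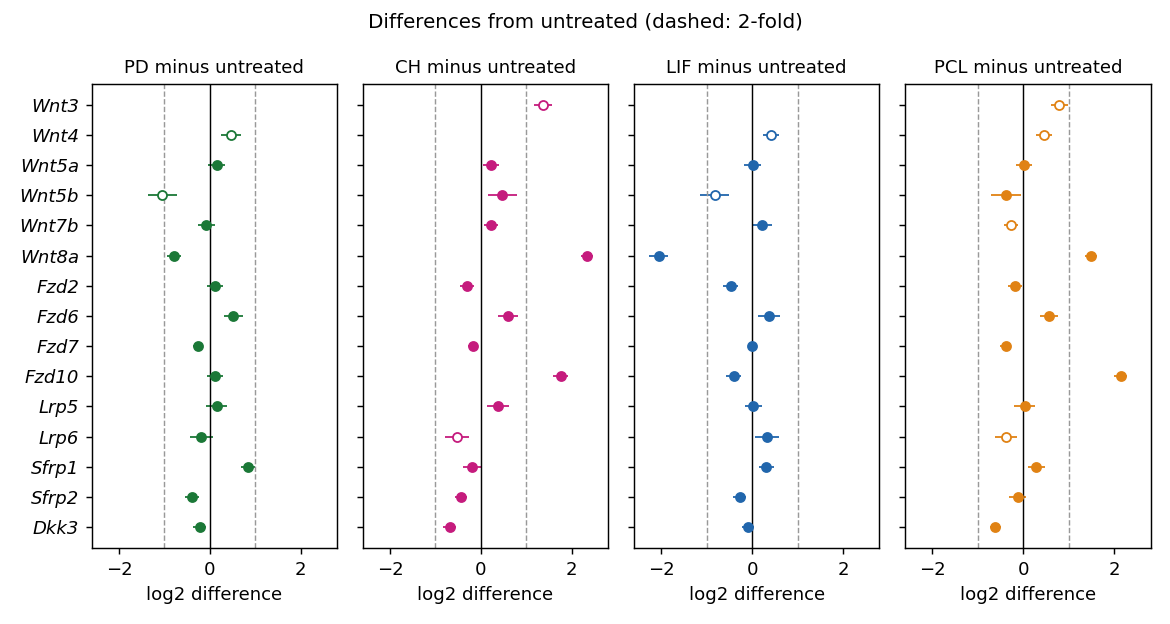
Log2 difference of each treated array from untreated (horizontal axis) for the 15 detected members, with propagated bead standard errors and dashed lines at 2-fold. Open points were detected on 1 of the 2 arrays, and members detected on neither are left blank: past 2-fold lie Wnt5b with PD, Wnt8a, Wnt3 and Fzd10 with CH, Wnt8a with LIF, and Wnt8a and Fzd10 with PCL.

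Counted by agent, CH moved more members past 2-fold than PD or LIF alone. With CH, 3 of the 14 members detected on at least 1 of the 2 arrays (21.4%) stood at least 2-fold higher, beside 0.572% of all 7699 genes compared, and 0 stood at least 2-fold lower, beside 0.39%. These were Wnt8a, Fzd10 and Wnt3, the last of which is 1.61-fold at its bound and 0.51 on the log2 scale without background correction. Wnt3 counts among the 14 only because the CH array detected it. Of the 12 members detected on both arrays, 2 were at least 2-fold higher, beside 26 of 7006 genes. The median of the 14 members was 0.23, beside -0.0094 for all genes. Of these members 8 lay above 0 and 6 below, beside 48.5% of all genes above 0. Markers of the primitive streak and mesoderm moved with these members: Mixl1, Eomes, Gsc and Fgf8, 4 of 6 on the array, were detected with CH and each past 2-fold higher by its measured value, with Mixl1 at 1.75-fold at its bound, while Mesp1 and Tbx6 were not detected. Their summed linear level was 261 untreated, 212 in PD, 1667 in CH, 119 in LIF and 1307 in PCL. Fgf8 weighs most in this sum, at 10.10 on the log2 scale with CH and with PCL. The part of these markers in the member values was not tested.

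With PD, 1 of 14 members stood at least 2-fold lower (7.14%), beside 0.451% of 7761 genes, and 0 at least 2-fold higher, beside 0.49%. This was Wnt5b, and at its bound of 1.62-fold, as without background correction or under median scaling, the count is 0. The members' median was 0.02, with 7 above 0 and 7 below, beside a median of 0.0014 and 50.2% above 0 for all genes.

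With LIF, 1 of 14 members stood at least 2-fold lower (7.14%), beside 2.81% of 7796 genes, and 0 at least 2-fold higher, beside 0.154%. This was Wnt8a, with 7 members above 0 and 7 below, beside 55.2% of all genes above 0. On this array genes of short genomic span stood lower, with a median of -0.30 over the shortest and -0.11 over the next of 10 groups of detected genes by span. Short genes stood lower on the other treated arrays as well. The medians of these groups were -0.14 and -0.13 with PD, -0.13 and -0.07 with CH, and -0.05 and -0.05 with PCL. Fzd10 and Fzd2 belong to the shortest group and Wnt8a and Fzd7 to the next. The part of span in their values was not tested on any array. The streak marker Fgf8 stood at -1.40 ± 0.15 and Gsc at -0.89 ± 0.15 with LIF.

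With PCL, 2 of 15 members stood at least 2-fold higher (13.3%), beside 0.706% of 7652 genes, and 0 at least 2-fold lower, beside 0.68%. These were Fzd10 and Wnt8a, and the median was 0.02. The comparisons with untreated share that array.

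The PCL culture held each agent at the dose of the single treatment, so its array was also set against those. Against CH, 0 of 14 members were 2-fold apart in either direction, beside 0.33% of 7578 genes higher and 0.515% lower. Wnt8a stood at -0.85 ± 0.10, Wnt5b at -0.85 ± 0.20, Wnt3 at -0.58 ± 0.24 and Fzd10 at 0.39 ± 0.10. The ligands named were thus lower and the receptor higher when PD and LIF were added to CH. These counts and values use the brightest probe. The second probe of Wnt8a stood at -1.06 ± 0.11, past 2-fold, and its dimmest at -0.60 ± 0.21. For Fzd10 the second probe stood at 0.25 ± 0.16, and the dimmest, detected with PCL alone, at a measured 1.10 ± 0.26. Streak markers were lower as well: Gsc stood at -1.39 ± 0.09 and Eomes at -0.55 ± 0.20, Mixl1 was at least 1.67-fold lower with a measured -1.56 ± 0.16, and Fgf8 was level, for a median of -0.97 over these 4. Feeder fibroblast markers had a median of 0.40 over the 13 compared, with Lox and Timp3 past 2-fold higher and 0 past 2-fold lower. The part of either marker list in these member values was not tested. Against PD, the measured values of Fzd10, Wnt3 and Wnt8a were past 2-fold higher, 3 of 15 beside 0.665% of 7671 genes, with Wnt8a at 2.28 ± 0.13, Fzd10 at 2.03 ± 0.12 and Wnt3 at least 1.10-fold higher. Wnt3 counts among these 15 only because the PCL array detected it. Against LIF, Wnt8a stood at 3.55 ± 0.20 and Fzd10 at 2.55 ± 0.10, 2 of 15 beside 3.02% of 7712 genes. No member was at least 2-fold lower with PCL than with PD or LIF, beside 0.613% and 0.882% of all genes.

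For the brightest probe of Wnt8a the single differences of PD, CH and LIF sum to -0.50 on the log2 scale. PCL stood 1.99 ± 0.32 above that sum, and it lay above the sum on the other probes of Wnt8a as well. For Fzd10 the sum was 1.46 and PCL stood 0.68 ± 0.33 above it. These sums use the untreated array 3 times, and they are given as values of these arrays.

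Taking the 2 arrays with an agent against the 3 without it, both CH arrays lay above all others for 4 of 15 members (26.7%), beside 9.71% of 8138 detected genes. These were Fzd10, Wnt8a, Wnt3 and Fzd6, with gaps of 1.64, 1.49, 0.79 and 0.04 between the nearest arrays. Wnt3 counts among the 15 only through these 2 arrays and its gap is to readings that were not well above background, and the gap of Fzd6 is smaller than its bead errors. Both lay below for Dkk3 and Lrp6, 2 of 15 (13.3%), beside 13.0% of genes, with gaps of 0.390 and 0.195. Neither CH array detected Lrp6, and its gap is smaller than the bead error of 0.22 between the nearest arrays, PCL and PD. On the second detected probe of Dkk3, PCL at 6.24 was level with LIF at 6.26. For PD, Wnt4 lay above (8.52% of genes) and Fzd7 and Wnt7b below (10.2%), all by less than 0.1. For LIF, 0 of 15 lay above or below, beside 8.64% and 6.02%.

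Other genes of the pathway were read from a list of 44 names, of which 42 were on the array and 24 were detected on at least 1. With PD 0 of the 22 compared and with LIF 0 of the 20 compared were 2-fold apart from untreated. With CH 4 of 23 were at least 2-fold higher (17.4%) and 0 lower, and with PCL 4 of 22 higher (18.2%) and 1 lower, beside the percentages of all genes given above. The 4 higher genes were Ror2, a receptor for Wnt5a, at 1.04 ± 0.14 and 1.19 ± 0.15 with CH and PCL, and the canonical targets Axin2, Sp5 and Tnfrsf19. Axin2 stood at 1.46 ± 0.14 and 1.48 ± 0.15, Tnfrsf19 at 1.95 ± 0.14 and 2.05 ± 0.16, and Sp5 was at least 7.35-fold and 7.77-fold higher. PCL minus CH was 0.02 ± 0.12 for Axin2, 0.09 ± 0.16 for Tnfrsf19 and 0.08 ± 0.10 for Sp5. For the listed target Nkd2 it was -0.37 ± 0.19, and Nkd1 was detected on no array. Against untreated, Nkd2 stood at 0.62 ± 0.16 with CH and 0.25 ± 0.20 with PCL. Wnt8a stood at -0.85 ± 0.10 in PCL minus CH, beside the lower streak markers given above.

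The gene lower with PCL was Shisa2, which retains Frizzled proteins inside the cell, at -1.11 ± 0.18. It stood at -0.91 ± 0.18 with CH and at 0.76 ± 0.16 with PD. Of the genes for ligand release, the acyltransferase Porcn stood at -0.29 ± 0.11 with PD and 0.29 ± 0.10 with CH, but its other detected probe was at 0.17 ± 0.23 with PD, and the carrier Wls stood at 0.38 ± 0.16 and 0.36 ± 0.16. The R-spondin Rspo3, which strengthens Wnt signals at the receptor, was detected with CH and PD only and was at least 1.69-fold and 1.12-fold higher. The measured log2 differences of Rspo3 were 0.86 ± 0.26 with CH and 0.27 ± 0.29 with PD, the latter smaller than its bead error. Its receptors Lgr5 and Lgr6 and the ligases Znrf3 and Rnf43 were detected on no array, and the receptor Lgr4 was not on the array.

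**Figure D4:**
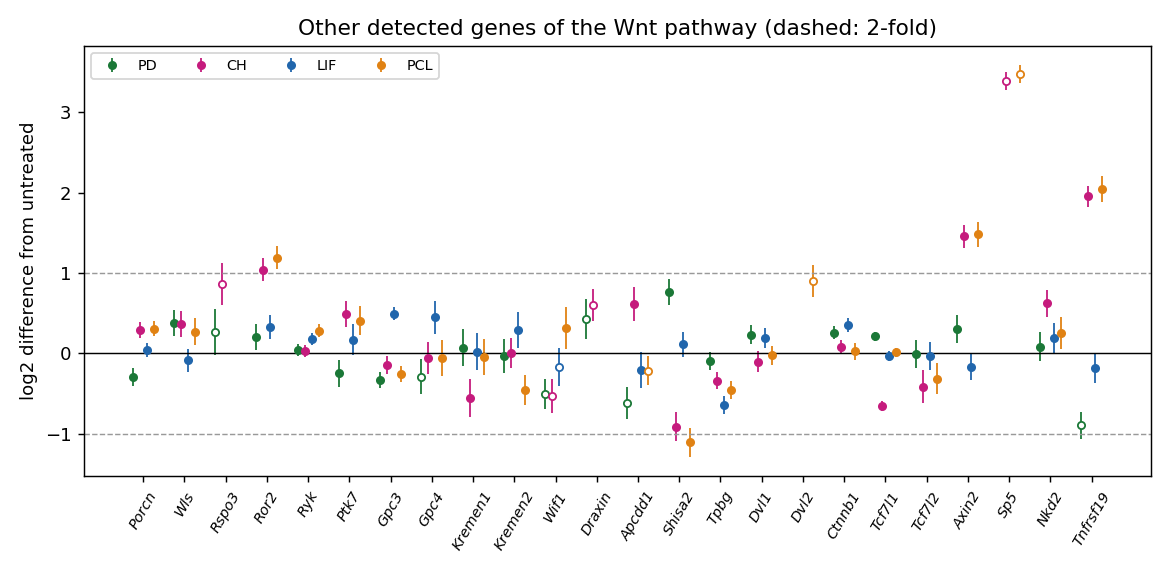
Log2 difference from untreated (vertical axis, with propagated bead standard errors and dashed lines at 2-fold) for the 24 detected genes of the fixed pathway list, by treatment. Open points were detected on 1 of the 2 arrays: Sp5, Tnfrsf19, Axin2 and Ror2 lie above 2-fold with CH and PCL, and Shisa2 lies below it with PCL.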

How the data were processed

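Total RNA of 5 cultures was hybridised to 1 bead array each. The authors deposited, per the file headers, a mean bead intensity on a linear scale, the standard error over beads and a detection p-value per probe, and the submitters' processing notes name BeadStudio. No background had been subtracted in the deposited intensity. The authors' table of processed intensity, of unstated scaling, served as an alternative.

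Intensities were normalized together with neqc (limma 3.58.1, R 4.3.3; offset 16, quantiles), checked on simulated data, and bead errors were propagated through the background correction to log2. Probes were named through the platform annotation, and the brightest of a gene's probes represented it. A gene entered a comparison when detected (p under 0.01) on at least 1 of both arrays. Where 1 array missed it, "at least N-fold" compares the brighter level with the dimmer array's lowest detected level, or with the probe's own where that is higher. "2-fold" refers to measured values.

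With 1 array per condition no test was run. Values on all arrays were given for Wnt8a, Wnt3, Fzd10, members past 2-fold and the 8 largest differences. The members and lists were chosen with earlier results of these data known, and the split by agent was added after seeing them. Tables used Python 3.11.15, pandas 2.3.3 and matplotlib 3.10.9.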

Additional observations from a re-analysis of the deposited data

How the results depend on the processing

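No paired analysis was possible because each condition has 1 array. Of 145 counts of members detected or past 2-fold recomputed under other settings, 136 stayed within 1.5 times the value given. No member difference past 2-fold from untreated changed sign where the setting gave a value. The signs of differences between PCL and the single agents were not followed. These 136 include counts that stayed at 0 and falls from 3 to 2. The count higher with CH, 3 in the report, was 2, losing Wnt3, without background correction, with an offset of 50 and with the authors' values. It was also 2 over genes detected on both arrays and at the bound. The count lower with PD, 1 in the report, was 0 without background correction, with an offset of 50, under median scaling, over genes detected on both arrays and at the bound. The count lower with LIF was 2 with an offset of 1. Against CH, PCL had 1 lower member with an offset of 1 (Wnt5b) and 1 under median scaling (Wnt8a), and against LIF 1 with an offset of 1 (Lrp6). The cause was not tested. Across settings Wnt8a lay between 2.01 and 2.50 with CH and between -2.48 and -1.20 with LIF, Fzd10 between 1.17 and 1.98 with CH, and Wnt3 between 0.51 and 2.67 with CH, where the lowest value came without background correction. Fzd10 with LIF turned to 0.05 over the mean of its probes, and Dkk3 with LIF to 0.13 under median scaling, which moved the median of all genes to 0.19 with LIF. The small medians of members turned sign with PD, LIF and PCL, at down to -0.06, -0.05 and -0.13, and the CH median was 0.01 with no detection filter. Under median scaling (without Fzd6) 3 members in place of 4 had both CH arrays above the others. The count was also 3 with the authors' values, where Wnt3 was missing and could not be counted. Under median scaling and over the mean of all probes 0 in place of 1 had both PD arrays above the others. Over the mean of all probes 1 in place of 0, Wnt5a, had both LIF arrays below them.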
